A study of Homo sapiens with 15 samples.

Results

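SPARK-OFF cells under DMSO were compared with no-mCherry control cells under DMSO, which answers how far the engineered lines that carry the YAP-MAML2 fusion differed from each other before any condensate was dissolved. The comparison used 6 of the 15 RNA-seq libraries of the series, 3 for each line, and its members were taken from the sample titles. SPARK-OFF cells carried FKBP-mEGFP-YAP-MAML2, the fusion joined to the rapamycin-binding domain FKBP and a green fluorescent protein, together with NLS-mCherry-Frb, a soluble nuclear partner that is drawn to FKBP by rapamycin. The no-mCherry control cells carried the tagged fusion without mCherry, so that rapamycin cannot dissolve its condensates. In both groups the cells received DMSO, the solvent of rapamycin, for 5 h. For side-by-side values the report also uses SPARK-OFF cells with rapamycin for 5 h, no-mCherry cells with rapamycin for 5 h, and eGFP cells, which carry no fusion and are called mock-treated in the labels with no duration, with 3 libraries each. All were human embryonic kidney cells, HEK293T in the labels and HEK293 in the study's text. They were stable lines, and neither the number of clones nor whether the replicates were separate cultures is given in the sources used here, so the p-values measure the spread between these libraries, which may be technical.

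For the no-mCherry DMSO libraries the title and the treatment field name DMSO, while the description names rapamycin, and the title was followed. The libraries from no-mCherry cells titled rapamycin and those titled DMSO were not interchangeable: 151 genes (85 higher and 66 lower with rapamycin, 0.821% of those tested) were called between them by the rule given below. The descriptions also carry a library code that begins with A for SPARK-OFF, G for no-mCherry and F for eGFP cells. The meaning of that letter is not given in the sources used here, and a batch that followed it cannot be told apart from the line.

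As background, YAP is a transcriptional coactivator that the Hippo kinases LATS1 and LATS2 hold in the cytoplasm. In the nucleus it binds TEAD transcription factors and switches on genes such as CCN1 (CYR61), CCN2 (CTGF) and ANKRD1, along with feedback genes of the Hippo pathway itself. MAML2 is a coactivator of Notch signalling whose activation domain replaces that of YAP in the fusion, which is found in meningioma and poroma. HEK293 cells keep an epithelial shape, yet express neurofilaments and other neuronal genes.

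The 6 libraries held 14720387 to 21223087 counted reads, and 18391 genes were tested. The library of no-mCherry DMSO replicate 3 stood apart. Its TMM scaling factor was 0.901, against 0.965 to 1.05 in the other 14 libraries, and its mean correlation of log2 values with its own group was 0.989, against 0.992 to 0.995 elsewhere. Counts are therefore also given without it for all genes and for many of the lists. Mitochondrial transcripts took 3.04% to 3.33% of the reads in SPARK-OFF DMSO libraries and 3.75% to 3.83% in no-mCherry DMSO libraries. Of 6 markers of HEK293 cells, LIN28B, NEFL, NEFM, VIM and CDH2 had 32.0 to 195 CPM in the 6 libraries, and the kidney factor PAX2 had 1.93 to 2.55 CPM in SPARK-OFF cells and 1.64 to 4.79 CPM in no-mCherry cells. Of 30 markers of other lineages, 9 had no read in any SPARK-OFF DMSO library and 9 had none in any no-mCherry DMSO library, among them CD3E, HBB and INS. Their summed level was 50.1 to 53.2 CPM in SPARK-OFF DMSO libraries and 48.3 to 55.6 CPM in no-mCherry DMSO libraries, and none of the 13 that could be tested passed the test.

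The genes that supply the fusion were both higher in SPARK-OFF cells. MAML2 (chr11:95976598-96343195 on hg38) had 395, 442 and 409 CPM in SPARK-OFF cells, against 199, 225 and 237 CPM in no-mCherry cells. CPM are read counts scaled by TMM and set to a common library total. eGFP cells had 3.81, 4.30 and 2.77 CPM, so that nearly all MAML2 reads in both lines stand above the level of cells without the fusion. The MAML2 difference was 0.91 ± 0.10 on the log2 scale (SE), a fold of 1.88, with an adjusted p of 2.1e-06. YAP1 (chr11:102110447-102233424), which the cells also express from their own gene, had 181, 213 and 211 CPM in SPARK-OFF cells, 143, 128 and 121 CPM in no-mCherry cells and 51.2, 55.4 and 51.8 CPM in eGFP cells. Its difference was 0.63 ± 0.11 (fold 1.54, adjusted p = 0.00069). With the eGFP mean subtracted, the level was 412 CPM in SPARK-OFF cells and 217 CPM in no-mCherry cells for MAML2, a ratio of 1.90. For YAP1 the same subtraction left 149 CPM in SPARK-OFF cells and 77.8 CPM in no-mCherry cells, a ratio of 1.91. The libraries of the lines did not overlap for either gene. In bulk RNA a larger share of cells with the fusion and more fusion RNA per cell cannot be told apart, and gene counts do not separate fusion transcripts from those of the endogenous genes.

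The partners of the rapamycin switch did not pass the test. FKBP1A, the endogenous gene of the FKBP domain, averaged 227 ± 10.4 CPM in SPARK-OFF cells and 228 ± 19.2 CPM in no-mCherry cells (SD, n = 3 each). Its log2 difference had a 95% interval of -0.19 to 0.18. The intervals here use the 10 residual degrees of freedom, fewer than the test used, and are wider for that. MTOR, whose protein holds the Frb domain, averaged 111 ± 21.8 CPM in SPARK-OFF cells and 115 ± 14.4 CPM in no-mCherry cells, with an interval of -0.35 to 0.23. In eGFP cells, which carry no fusion, FKBP1A averaged 242 CPM and MTOR 141 CPM. Whether reads of the short FKBP and Frb tags were counted to these genes was not tested.

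**Figure D1:**
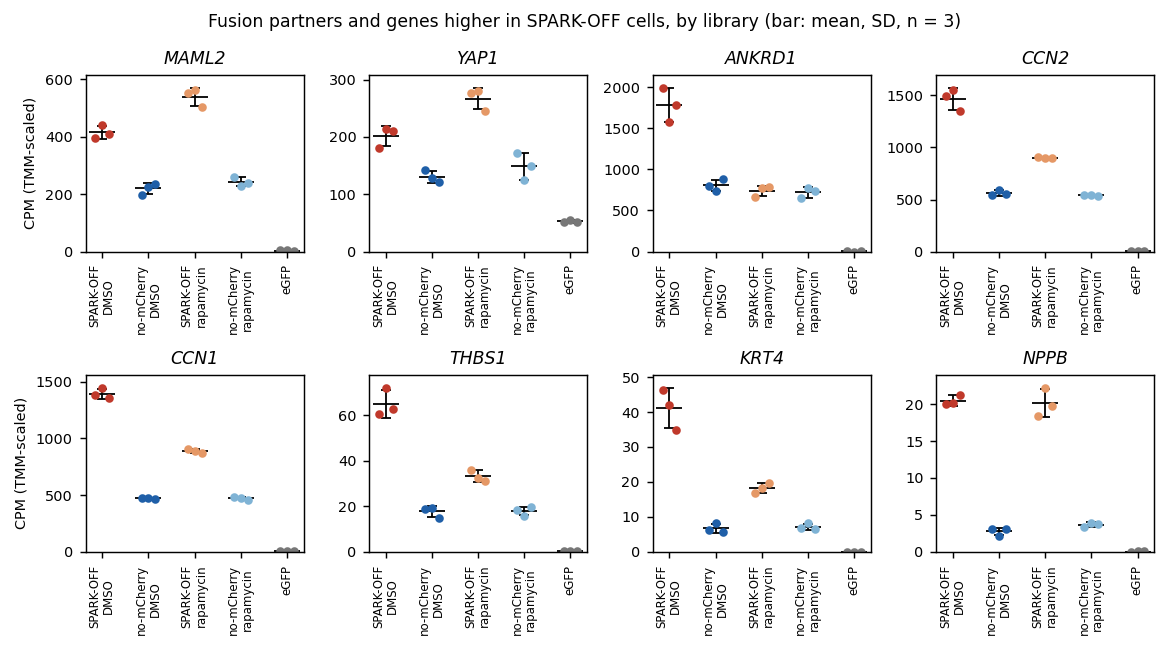
Level (CPM after TMM scaling, linear axes from 0) of MAML2, YAP1 and 6 genes that were higher in SPARK-OFF cells, in each library of the 5 groups, with SPARK-OFF left of no-mCherry cells and eGFP cells last; points are libraries, the long bar is the mean and the whiskers are the SD (n = 3). The SPARK-OFF DMSO points lie above the no-mCherry DMSO points in each panel, and for ANKRD1 the rapamycin pair overlaps.

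Across all genes, 490 were called higher in SPARK-OFF cells (2.66% of the 18391 tested) and 340 lower (1.85%). Calls needed P under 0.01, FDR under 0.1 and a log2 fold change of 0.58 or more in size, as the study set them. Of these 830 genes 595 were protein-coding, and 287 were higher and 95 lower by 1 or more on the log2 scale. The median over all tested genes was -0.02 on the log2 scale. For 781 of the 830 called genes the 3 SPARK-OFF libraries did not overlap the 3 no-mCherry libraries, which was true of 23.2% of all tested genes. Without no-mCherry DMSO replicate 3 the balance turned, with 385 genes called higher and 441 called lower, and 561 of the 830 genes were still called in the same direction. A fit on the 6 libraries alone, which estimates the spread from fewer samples, called 357 higher and 205 lower. Members of gene lists are counted below at an adjusted p under 0.05 with no fold threshold, a rule that 3.78% of all tested genes passed as higher and 3.25% as lower. Genes with more reads pass it more readily, so these shares are a description and not a test of a list.

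**Figure D2:**
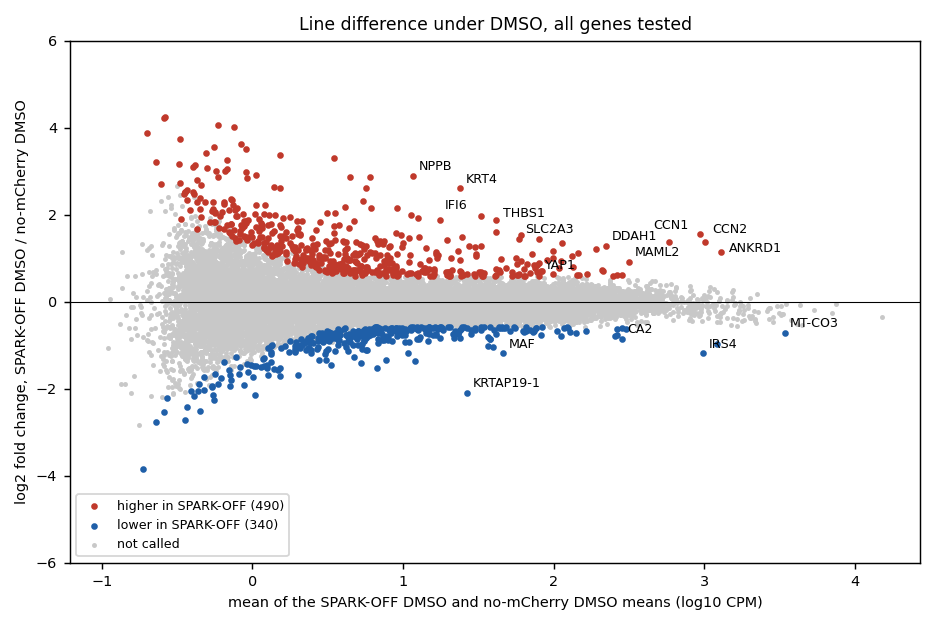
Log2 fold change between SPARK-OFF DMSO and no-mCherry DMSO cells (vertical axis) against the mean level of both lines (horizontal axis, log10 CPM) for the 18391 tested genes, with 490 genes called higher in red, 340 called lower in blue and the others in grey. CCN1, CCN2 and ANKRD1 stand at the right among the higher genes, and KRTAP19-1 and IRS4 are among the lower ones.

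Several canonical YAP targets were higher in SPARK-OFF cells. Of 22 core YAP targets 11 rose, 1 fell (FOXF2, a forkhead factor, -0.34) and 10 did not pass the test. Their median was 0.43, and 10 of them rose without no-mCherry DMSO replicate 3. CCN1, a secreted matricellular protein, had 1378, 1445 and 1352 CPM in SPARK-OFF cells and 477, 476 and 469 CPM in no-mCherry cells. Its difference was 1.55 ± 0.08, a fold of 2.94 (adjusted p = 1.1e-11). CCN2, its relative in the same family, had 1498, 1556 and 1351 CPM in SPARK-OFF cells and 544, 594 and 554 CPM in no-mCherry cells (1.38 ± 0.09, fold 2.60, adjusted p = 3.9e-10). In both genes the lowest SPARK-OFF library was above the highest no-mCherry library by more than the range within either line. ANKRD1, an ankyrin repeat protein of the nucleus and the sarcomere, had 1993, 1576 and 1780.1 CPM in SPARK-OFF cells and 799.8, 740.2 and 878 CPM in no-mCherry cells (1.15 ± 0.11, fold 2.21, adjusted p = 7.5e-07). eGFP cells averaged 10.2 CPM of CCN1, 1.26 CPM of CCN2 and 1.10 CPM of ANKRD1.

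The promoters of 3 of the rising genes and 1 falling gene are shown because TEAD, the DNA-binding partner of the fusion, is known to recognise the letters GGAATG. They are chosen examples that all hold a copy, which 16.96% of the promoters of genes called higher did. Each run holds 250 bases before and 50 bases after the RefSeq start on GRCh38.p14, 5′ to 3′ on the gene's strand. Capitals mark GGAATG on either strand and the AP-1 letters TGANTCA, where N is any base.
CCN2, chr6:131951323-131951622, minus strand: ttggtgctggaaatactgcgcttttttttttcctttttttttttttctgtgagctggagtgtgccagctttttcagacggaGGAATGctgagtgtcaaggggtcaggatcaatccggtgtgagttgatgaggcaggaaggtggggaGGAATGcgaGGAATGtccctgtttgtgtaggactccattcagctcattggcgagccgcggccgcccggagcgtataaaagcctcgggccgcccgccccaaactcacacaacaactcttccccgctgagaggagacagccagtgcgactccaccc
ANKRD1, chr10:90921038-90921337, minus strand: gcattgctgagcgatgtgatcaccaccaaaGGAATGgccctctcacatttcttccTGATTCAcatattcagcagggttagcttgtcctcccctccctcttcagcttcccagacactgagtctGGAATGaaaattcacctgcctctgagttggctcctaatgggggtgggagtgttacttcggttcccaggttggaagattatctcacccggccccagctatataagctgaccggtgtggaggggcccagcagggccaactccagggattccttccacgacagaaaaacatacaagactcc
THBS1, chr15:39580829-39581128, plus strand: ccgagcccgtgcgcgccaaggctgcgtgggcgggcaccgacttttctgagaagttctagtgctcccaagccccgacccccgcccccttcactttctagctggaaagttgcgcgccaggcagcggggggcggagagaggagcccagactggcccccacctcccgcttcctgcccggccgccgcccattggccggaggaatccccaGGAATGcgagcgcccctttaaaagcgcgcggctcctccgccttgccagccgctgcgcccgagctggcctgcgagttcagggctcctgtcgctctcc
KRTAP19-1, chr21:30480318-30480617, minus strand: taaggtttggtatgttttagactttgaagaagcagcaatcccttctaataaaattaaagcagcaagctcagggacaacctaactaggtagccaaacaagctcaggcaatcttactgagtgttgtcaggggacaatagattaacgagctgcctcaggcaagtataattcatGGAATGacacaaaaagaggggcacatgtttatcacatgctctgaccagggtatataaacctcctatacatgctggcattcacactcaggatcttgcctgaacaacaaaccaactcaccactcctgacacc
The CCN2 window held GGAATG 3 times, with first bases 169, 104 and 95 before the start. The ANKRD1 window held it 2 times, 220 and 128 bases before the start, and 1 AP-1 match at 195. The THBS1 window held 1 copy at 46 and the window of KRTAP19-1, a gene lower in SPARK-OFF cells, 1 copy at 80. At least 1 copy on either strand was present in 38 of 224 promoters of genes called higher (16.96%), in 17 of 154 promoters of genes called lower (11.04%), in 10.8% of the 8940 promoters of tested genes and in 14.4% of all 22114. At least 1 AP-1 match was in 10.3% of the promoters of genes called higher, 5.84% of those called lower, 4.27% of those tested and 8.05% of all. The table used has an entry for 224 of the 490 genes called higher and 154 of the 340 called lower. A match is a description of letters, not a bound site.

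Of the other core targets 8 rose. AMOTL2, an angiomotin that restrains YAP, had 253, 288 and 254 CPM in SPARK-OFF cells and 114, 119 and 112 CPM in no-mCherry cells (1.20 ± 0.09, adjusted p = 3.6e-09). LATS2, the kinase that phosphorylates YAP, had 53.98, 66.9 and 57.3 CPM in SPARK-OFF cells and 32.3, 30.2 and 28.1 CPM in no-mCherry cells (0.98 ± 0.11, adjusted p = 3.0e-06). MYOF, a membrane repair protein, rose by 1.36, IGFBP3, a carrier of insulin-like growth factors, by 1.37, TGFB2, a TGF-beta ligand, by 0.89 and CRIM1, a membrane protein that binds BMP ligands, by 0.77. FJX1 (0.36) and GADD45A (0.32) passed the test with less than the fold threshold, and FJX1 did not pass without no-mCherry DMSO replicate 3 (adjusted p = 0.086). The members that did not pass were NUAK2 (0.57), CCDC80 (0.45), F3 (0.41), NT5E (0.28), PTPN14 (0.24), RBMS3 (0.19), ASAP1 (-0.02), DOCK5 (-0.14), ARHGEF17 (-0.28) and AXL (-0.39). AXL had at most 1.31 CPM in any of the 6 libraries, a depth at which a difference of this size is not detectable.

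Among 28 tested members of the Hippo pathway and its TEAD factors 4 rose and 1 fell. WWC2, an activator of LATS kinases, had 80.6, 103 and 99.5 CPM in SPARK-OFF cells and 54.7, 58.9 and 45.1 CPM in no-mCherry cells (0.83 ± 0.11). AJUBA, a LIM protein that inhibits LATS, had 176, 168 and 172 CPM in SPARK-OFF cells and 122, 114 and 103 CPM in no-mCherry cells (0.61 ± 0.08). TEAD1, a DNA-binding partner of YAP, averaged 85.6 ± 13.1 CPM in SPARK-OFF cells and 54.1 ± 1.64 CPM in no-mCherry cells (0.66 ± 0.11). AMOT, the X-linked angiomotin, went the other way from AMOTL2, with 198, 288 and 224 CPM in SPARK-OFF cells and 409, 439 and 252 CPM in no-mCherry cells (-0.63 ± 0.15, adjusted p = 0.013). The highest SPARK-OFF library of AMOT was above no-mCherry replicate 3, so its ranges overlapped. The scaffold SAV1 (0.38) was the remaining riser. Of 23 Notch receptors, ligands and targets, the pathway of full-length MAML2, 1 rose and 2 fell, and without that replicate 1 rose and 6 fell. JAG1, a Notch ligand, rose by 0.63, while the Notch target genes HEY1 (-0.44) and HES4 (-0.64) fell.

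The 15 largest increases were taken from called protein-coding genes at 5 CPM or more whose libraries did not overlap between the lines. They were led by genes that were near 0 in eGFP cells. NPPB, the precursor of B-type natriuretic peptide, had 20.05, 20.1 and 21.3 CPM in SPARK-OFF cells and 3.09, 2.18 and 3.04 CPM in no-mCherry cells (2.89 ± 0.17, fold 7.42, adjusted p = 1.2e-10). KRT4, a keratin of stratified epithelia, had 46.4, 42.03 and 34.9 CPM in SPARK-OFF cells and 6.32, 8.16 and 5.74 CPM in no-mCherry cells (2.60 ± 0.15, fold 6.08), and no read in the 3 eGFP libraries. MYH2, a skeletal muscle myosin heavy chain, had 7.28, 8.95 and 7.27 CPM in SPARK-OFF cells and 1.58, 0.762 and 0.936 CPM in no-mCherry cells (2.86 ± 0.32). Separate ranges in the lines were a condition for this selection and are not a result. ACTBL2, an actin relative, averaged 10.7 ± 1.31 CPM in SPARK-OFF cells and 1.46 ± 0.256 CPM in no-mCherry cells (2.86 ± 0.23), and it shares sequence with other actins, so its counts are uncertain. PSG4 (2.31) belongs to a family of close copies of pregnancy-specific glycoproteins and is uncertain in the same way.

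EDN1, the vasoconstrictor endothelin, had 12.3, 9.83 and 7.27 CPM in SPARK-OFF cells and 1.17, 1.80 and 1.81 CPM in no-mCherry cells (2.61 ± 0.28). TTR, the carrier of thyroxine and retinol-binding protein, had 18.02, 19.99 and 21.2 CPM in SPARK-OFF cells, 5.22, 4.95 and 5.44 CPM in no-mCherry cells and no read in eGFP cells (1.92 ± 0.16). SOCS3, an inhibitor of cytokine signalling, had 31.9, 24.2 and 26.7 CPM in SPARK-OFF cells and 8.31, 7.18 and 7.02 CPM in no-mCherry cells (1.88 ± 0.15). The same order held for EMP1 (2.14), an epithelial membrane protein, IGFL2 (2.15), a secreted factor, OLR1 (2.04), a receptor for oxidised lipoprotein, and CD36 (1.85), a fatty acid receptor. KRT8 and KRT18, the keratin pair of simple epithelia, rose by 1.37 ± 0.10 and 1.12 ± 0.13. KRT8 had 894, 809 and 811 CPM in SPARK-OFF cells and 368, 337 and 269 CPM in no-mCherry cells. In all, 3 of 18 tested epithelial keratins and junction genes rose and none fell, and the 3 were the keratins named here. Without no-mCherry DMSO replicate 3 the counts were 3 and 1.

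DDAH1, which degrades an inhibitor of nitric oxide synthase, had 303, 326 and 319.7 CPM in SPARK-OFF cells and 128, 129 and 131 CPM in no-mCherry cells (1.29 ± 0.08, adjusted p = 3.9e-10). SLC2A3, a glucose transporter, had 87.9, 83.6 and 88.3 CPM in SPARK-OFF cells and 34.3, 32.7 and 28.4 CPM in no-mCherry cells (1.45 ± 0.09). ATP5IF1, an inhibitor of the mitochondrial ATP synthase, averaged 345 ± 25.95 CPM in SPARK-OFF cells and 226 ± 10.8 CPM in no-mCherry cells (0.61 ± 0.09). Each of these had separate ranges in the lines. SLC2A1, a second glucose transporter, rose by 0.50, whereas of 34 tested glycolysis and hypoxia genes 2 rose, both of them these transporters, and 4 fell. The 4 were CA2, described below, DDIT4 (-0.49), an inhibitor of mTORC1 signalling, EGLN1 (-0.44), an oxygen sensor, and PFKL (-0.32), a phosphofructokinase.

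Genes of the extracellular matrix and of secreted signals moved in both directions. THBS1, thrombospondin, an adhesive matrix glycoprotein, had 60.4, 72.1 and 62.7 CPM in SPARK-OFF cells and 19.03, 19.5 and 14.98 CPM in no-mCherry cells (1.87 ± 0.12, fold 3.65, adjusted p = 4.9e-10). Of 44 matricellular and basement membrane genes 9 rose and 5 fell, and without no-mCherry replicate 3 the counts were 7 and 12. HPSE, heparanase (1.27), POSTN, periostin (1.38), and SPARC, a calcium-binding matrix protein (1.01), rose, and HSPG2, the basement membrane proteoglycan perlecan, fell (-0.93). The proteoglycan genes SPOCK1 (-2.14), VCAN (-0.58) and AGRN (-0.45) and the fibulin gene FBLN2 (-0.73) were the other 4 that fell. SPOCK1 did not meet the conditions for the 15 largest decreases, a level of 5 CPM and libraries that do not overlap. Of 35 collagens and crosslinking enzymes 5 rose and 1 fell, against 6 and 4 without no-mCherry replicate 3. COL12A1 had 14.7, 20.6 and 18.6 CPM in SPARK-OFF cells and 4.67, 4.52 and 4.27 CPM in no-mCherry cells (1.997 ± 0.23). COL3A1 rose by 1.29, COL5A3 by 0.98 and COL2A1 by 0.84, COL16A1 by 1.55, and COL6A2 fell (-0.36). Of 32 integrin and focal adhesion genes 3 rose, CAV1 of caveolae (1.17), ITGB8 (1.07) and PARVA (0.41), and 1 fell, ITGA8 (-0.67). PARVA did not pass without that replicate (adjusted p = 0.081).

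Of 46 growth factors and their receptors 11 rose and 2 fell, with 8 and 6 without no-mCherry replicate 3. ADM, the vasodilator adrenomedullin, had 64.9, 56.9 and 64.4 CPM in SPARK-OFF cells and 22.5, 20.9 and 18.3 CPM in no-mCherry cells (1.60 ± 0.11, fold 3.02). HBEGF, a ligand of the EGF receptor, rose by 1.10 and IGFBP6 by 1.23. The receptor gene FGFR4 (-0.60) and the ligand gene VEGFB (-0.57) were the 2 that fell. In the TGF-beta and BMP list of 40 genes, 5 rose and 1 fell, against 5 and 2 without that replicate. FSTL3, a secreted inhibitor of activin, had 117, 114 and 122 CPM in SPARK-OFF cells and 48.9, 46.5 and 34.2 CPM in no-mCherry cells (1.45 ± 0.11). The inhibitory SMAD7 (0.69) and the ligand BMP4 (0.68) rose, as did BMP6 (0.57) and ID1 (0.60), and ID2, a BMP target gene, fell (-0.60). Among 38 Wnt genes the antagonist DKK1 rose (42.7, 34.7 and 46.6 CPM in SPARK-OFF cells, 20.3, 16.6 and 21.3 CPM in no-mCherry cells, 1.09 ± 0.13) and the receptor FZD10 fell (-1.14), and the other 36 did not pass.

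Of 27 AP-1 and immediate early factors 7 rose and 3 fell. FOSB (1.28), FOSL2 (1.07), MAFF (1.07) and ATF3 (0.71), all of the bZIP class, rose. The 3 that fell were JUND (-0.39), IER5 (-0.44) and BTG2 (-0.35). ATF3 had 107, 103 and 99.3 CPM in SPARK-OFF cells and 59.7, 56.2 and 72.6 CPM in no-mCherry cells. Of 19 MAPK feedback genes 3 rose, the phosphatases DUSP1 (0.93) and DUSP5 (0.75) and the inhibitor SPRY2 (0.59), and 1 fell, RASA1 (-0.46), a GTPase-activating protein of Ras. Of 18 NF-kB targets and chemokines 3 rose and none fell. The 3 were TNFRSF12A, the TWEAK receptor (0.70), the chemokine CCL20 (1.34) and the inhibitor NFKBIA (0.49).

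Interferon-stimulated genes and histone genes had the medians farthest above 0 among lists with 30 or more tested members. Of 31 tested interferon-stimulated genes 7 rose and none fell, with a median of 0.46, and 5 rose without no-mCherry replicate 3. IFI6, a mitochondrial and ER protein induced by interferon, had 58.1, 44.9 and 54.1 CPM in SPARK-OFF cells, 11.8, 13.8 and 14.4 CPM in no-mCherry cells and 10.1, 8.55 and 10.3 CPM in eGFP cells (1.97 ± 0.11, fold 3.92, adjusted p = 1.2e-10). ISG15, a ubiquitin-like modifier, rose by 1.53 ± 0.20 and BST2, tetherin, by 1.75 ± 0.31. Of 31 replication-dependent histone genes 11 rose and none fell, with a median of 0.78, and 12 rose without that replicate. H2BC12 had 133, 131 and 133 CPM in SPARK-OFF cells and 63.2, 54.2 and 80.2 CPM in no-mCherry cells (1.01 ± 0.11). H1-2 (1.06), H3C10 (1.33) and H3C6 (0.74) also rose. Most histone mRNAs lack a poly(A) tail and their genes are close copies, so in libraries from polyA RNA these counts are uncertain. Of 45 cell cycle genes 7 rose and none fell, among them CCNE1 (0.51), RRM2 (0.38), CDC25A (0.35) and the inhibitor CDKN2D (0.82). Without no-mCherry replicate 3, 8 rose and 1 fell.

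The genes lower in SPARK-OFF cells had smaller differences. KRTAP19-1, a keratin-associated protein of hair, had 9.73, 10.3 and 10.2 CPM in SPARK-OFF cells, 52.8, 39.4 and 36.99 CPM in no-mCherry cells and 51.5, 41.5 and 36.03 CPM in eGFP cells (-2.10 ± 0.14, adjusted p = 1.3e-09). The no-mCherry and eGFP libraries of this gene overlapped. IRS4, an insulin receptor substrate, had 506, 684 and 606 CPM in SPARK-OFF cells, 1294, 1394 and 1406 CPM in no-mCherry cells and 1971, 1942 and 2092 CPM in eGFP cells (-1.19 ± 0.10, adjusted p = 4.4e-08). Its level was thus ordered SPARK-OFF, no-mCherry, eGFP with no overlap. CA2, carbonic anhydrase, had the same order, with 204, 196 and 204 CPM in SPARK-OFF cells, 382, 359 and 354 CPM in no-mCherry cells and 602, 568 and 576 CPM in eGFP cells (-0.86 ± 0.08).

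MAF, a bZIP transcription factor, had 26.99, 27.6 and 30.3 CPM in SPARK-OFF cells and 75.3, 71.1 and 46.2 CPM in no-mCherry cells (-1.18 ± 0.14), with replicate 3 the lowest of the no-mCherry libraries. KANK3, a regulator of the actin cytoskeleton, had 7.52, 5.41 and 7.01 CPM in SPARK-OFF cells and 14.4, 16.4 and 14.05 CPM in no-mCherry cells (-1.17 ± 0.14). The zinc finger repressors ZNF503 (-0.77) and ZNF703 (-0.79) and the zinc finger homeobox gene TSHZ1 (-1.01) fell. ZNF503 had 184, 190.4 and 207 CPM in SPARK-OFF cells and 351, 335 and 308 CPM in no-mCherry cells. Others among the 15 largest decreases were PNPLA7 (-1.12), a lysophospholipase, SLC22A31 (-1.08), P2RX2 (-1.01), an ATP-gated channel, SHANK1 (-0.96), a postsynaptic scaffold, TENM1 (-0.91), an adhesion protein of neurons, S100A13 (-0.91) and ZNF25 (-0.91). ZNF25 did not pass without no-mCherry replicate 3 (adjusted p = 0.059).

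**Figure D3:**
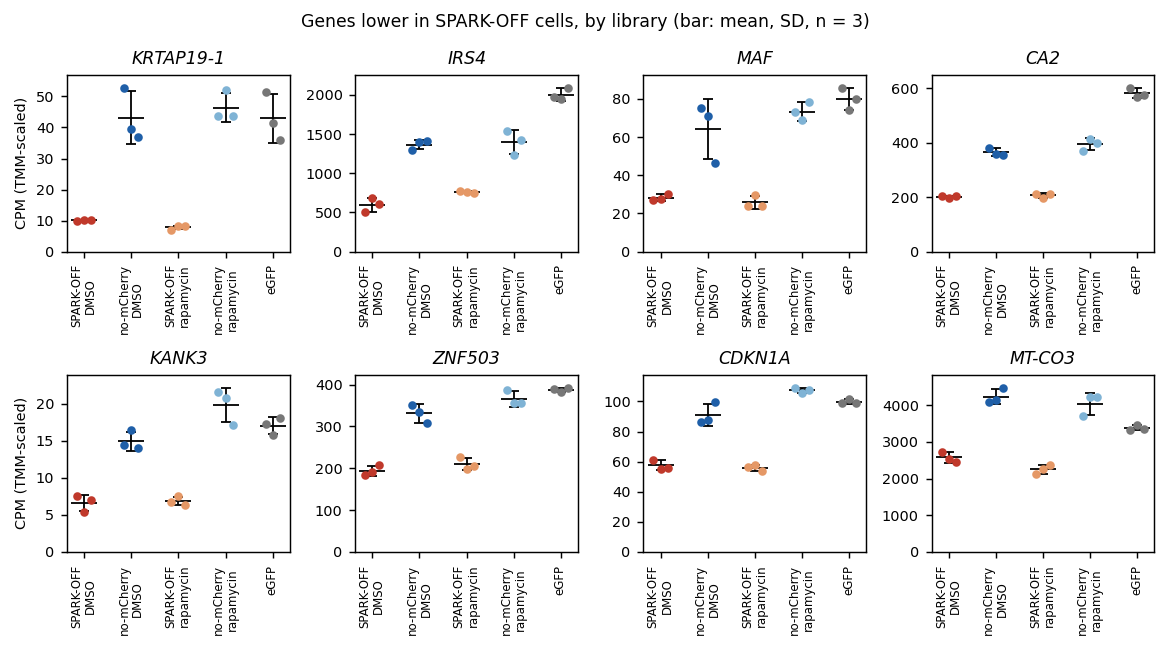
Level (CPM after TMM scaling, linear axes from 0) of 8 genes that were lower in SPARK-OFF cells, in each library of the 5 groups, with SPARK-OFF left of no-mCherry cells and eGFP cells last; points are libraries, the long bar is the mean and the whiskers are the SD (n = 3). In each panel the 3 SPARK-OFF DMSO points lie below the 3 no-mCherry DMSO points.

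Of 19 p53 target genes 5 fell and 1 rose, PLK2 (1.01), a kinase. CDKN1A, the cyclin-dependent kinase inhibitor p21, had 61.4, 55.2 and 56.1 CPM in SPARK-OFF cells and 86.4, 87.7 and 99.5 CPM in no-mCherry cells (-0.66 ± 0.08, adjusted p = 2.0e-05). MDM2, the ubiquitin ligase of p53, had 101, 121 and 98.2 CPM in SPARK-OFF cells and 161, 186 and 184 CPM in no-mCherry cells (-0.73 ± 0.10). FDXR, ferredoxin reductase, fell by 0.71 on the log2 scale. The ranges of these 3 genes did not overlap between the lines. SESN1 (-0.48), a stress sensor, and RRM2B (-0.48), a ribonucleotide reductase subunit, were the other members that fell. HEK293T cells carry SV40 large T antigen, which binds p53.

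Of 13 mRNAs encoded in mitochondria 6 fell and none rose, with a median of -0.26, and the count was also 6 without no-mCherry replicate 3. MT-CO3, a subunit of cytochrome oxidase, had 2734, 2539.9 and 2454 CPM in SPARK-OFF cells and 4079, 4153 and 4474 CPM in no-mCherry cells (-0.72 ± 0.08, adjusted p = 5.7e-06). MT-ATP6 (-0.55), MT-CO2 (-0.52) and MT-ND4 (-0.47) also fell. The share of mitochondrial reads given above moved with these genes, and its part in the result was not tested. Of 48 nuclear genes of oxidative phosphorylation 5 fell and 1 rose. NDUFB8 of complex I (-0.96), ATP5ME of the ATP synthase (-0.86), and UQCRQ (-0.68) and UQCRC1 (-0.41) of complex III fell. ATP5ME did not pass without that replicate (adjusted p = 0.0503). The other nuclear members that passed were NDUFB5 of complex I (-0.40), which fell, and COX5A of cytochrome oxidase (0.27), which rose. Of 75 cytosolic ribosomal protein genes 10 fell and none rose, with a median of -0.21, but without no-mCherry replicate 3 the number was 4 and the median -0.12. RPL26 (-0.86), RPL10 (-0.54), RPLP0 (-0.49) and RPSA (-0.53) led this list. RPSA did not pass without that replicate (adjusted p = 0.076), and ribosomal protein genes have many processed copies that can share reads. Of 40 ribosome biogenesis factors 6 rose and none fell, among them NHP2 (0.58) and GAR1 (0.56) of the H/ACA complex, PES1 (0.33) and NCL (0.33). Without no-mCherry replicate 3, 6 rose and 1 fell.

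Of 36 HOX genes 6 fell and 1 rose, and 15 fell without no-mCherry replicate 3. HOXD9 (-0.53), HOXC4 (-0.64) and HOXA5 (-0.33) fell, and HOXC12 had 9.83, 12.8 and 11.7 CPM in SPARK-OFF cells and 6.53, 4.62 and 3.22 CPM in no-mCherry cells (1.27 ± 0.21). Of 57 axon guidance genes 4 fell and 1 rose, with 10 and 1 without that replicate. SLIT2, a secreted repellent, averaged 346 ± 31.9 CPM in SPARK-OFF cells and 481 ± 85.9 CPM in no-mCherry cells (-0.47 ± 0.11). EPHA7 (-0.43), SEMA3D (-0.52) and SEMA3F (-0.51) fell, and EPHA2 (0.47) rose. Of 22 neuronal genes of HEK293 cells 3 fell, NEFL (-0.47), NEFM (-0.56) and GAP43 of growth cones (-0.94), and 1 rose, the synaptic gene SNAP25 (1.97), while the list's median was 0.23. SNAP25 averaged under 2 CPM in both lines, so its difference rests on few reads. Without no-mCherry replicate 3, 3 neuronal genes fell and 3 rose. NEFL had 44.2, 40.6 and 42.4 CPM in SPARK-OFF cells, 58.1, 58.6 and 59.2 CPM in no-mCherry cells and 89.97, 79.8 and 100.1 CPM in eGFP cells. Of 12 mesenchymal markers VIM (-0.40) and SNAI2 (-0.49) fell and none rose. The 14 protocadherins tested and the 13 markers of other lineages had no member that passed.

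The stress and metabolic lists were short. The share that rose was 19.0% of heat shock, 18.75% of retinoic acid, 10% of ER unfolded protein response and 9.09% of lysosome genes. It was 6.45% in both the ATF4 list and the sterol and fatty acid list, against 3.78% of all tested genes. Of 21 heat shock genes 4 rose, HSPH1 (0.39), DNAJB1 (0.37), BAG3 (0.43) and FKBP4 (0.30), the last 2 of which did not pass without no-mCherry replicate 3 (adjusted p = 0.058 and 0.11). None of the 21 fell, while 3 rose and 1 fell without that replicate. Of 20 genes of the ER unfolded protein response 2 rose, the chaperones CALR (0.42) and HSPA5 (0.39), and 5 rose without that replicate. In the ATF4 and amino acid list 2 of 31 rose, the transporter genes SLC3A2 (0.32) and SLC38A2 (0.30), and SHMT2 fell (-0.29). FDPS, a gene of isoprenoid and sterol synthesis, rose by 0.36. In its list of 31 sterol and fatty acid genes 2 rose and none fell, against 4 and 2 without that replicate. In the SRF and MRTF list of 25 genes, TPM1 (0.76) and FLNA (0.48) rose and PDLIM7 (-0.42) fell. MAP1LC3B (0.42), GPNMB (1.12) and SQSTM1 (0.28) rose and CTSK (-1.04) and GAA (-0.31) fell, of 33 lysosome genes. FLNA (adjusted p = 0.057), CTSK (0.074) and FDPS (0.069) did not pass without no-mCherry replicate 3. Of 16 retinoic acid genes 3 rose and none fell, TTR, the retinoic acid hydroxylase CYP26A1 (1.14) and RDH10 (0.31), against 2 and 4 without that replicate. NORAD (0.74) was the 1 riser among 7 tested members of a list of long noncoding RNAs, whose median was -0.21. GATA3, one of the kidney and adrenal markers, rose by 0.70. Without no-mCherry replicate 3, GATA3 (adjusted p = 0.16) and RDH10 (0.12) did not pass.

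**Figure D4:**
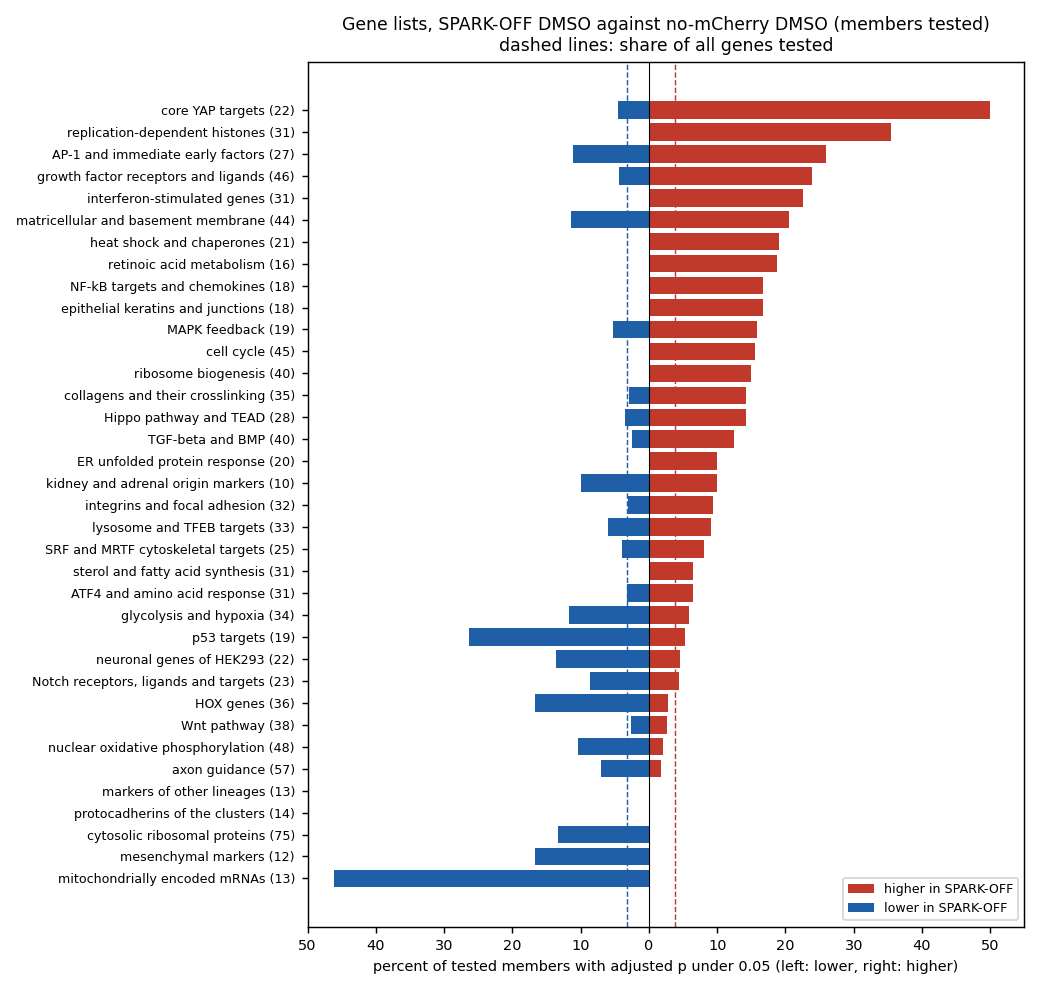
Share of each list's tested members (percent, number tested in brackets, lists with 10 or more) with an adjusted p under 0.05, higher in SPARK-OFF DMSO cells to the right in red and lower to the left in blue; dashed lines mark the share over all tested genes, 3.78% higher and 3.25% lower. Core YAP targets reach the farthest right, with 11 of 22, and mitochondrially encoded mRNAs the farthest left, with 6 of 13.

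No nuclear chromosome carried a shift of the line as a whole, while the 16 tested mitochondrial genes had a median of -0.25. Medians over whole chromosomes cannot show the gain or loss of a part. The median log2 difference over the genes of a nuclear chromosome ran from -0.06 on chromosome 5 to 0.02 on chromosome 17, and the share of its genes called from 1.99% on chromosome 15 to 6.09% on chromosome 12.

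The rapamycin libraries gave a second comparison of the lines that shares no library with the first. There 446 genes were called higher in SPARK-OFF cells (2.43%) and 581 lower (3.16%). Of the 830 genes called under DMSO, 328 were called in the same direction under rapamycin, which is 39.5% of the DMSO calls and 31.9% of the rapamycin calls, and 1 was called in the opposite direction. Of the 490 genes called higher under DMSO, 445 had a positive difference under rapamycin, and of the 340 called lower, 316 had a negative one. The fusion partners kept their order: MAML2 had 553, 563 and 504 CPM in SPARK-OFF cells and 261, 230.4 and 238 CPM in no-mCherry cells with rapamycin (1.15 ± 0.10), and the MAML2 difference did not pass a test of the difference between treatments (-0.24, adjusted p = 0.74). NPPB (2.44 ± 0.16), COL12A1 (1.98 ± 0.22), KRTAP19-1 (-2.57 ± 0.15) and CA2 (-0.93 ± 0.08) also differed between the lines with rapamycin.

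For the interaction, the dependence of the line difference on the treatment, 35 genes (0.19% of those tested) were called. Of these, 22 had a more positive line difference under DMSO and 13 a more negative one. The interaction has a larger SE than either line difference, so a gene that was not called may still depend on the treatment. With no-mCherry DMSO replicate 3 left out the counts were 38 and 54, and with SPARK-OFF rapamycin replicate 3 left out they were 7 and 1. At an adjusted p under 0.05 there were 18 such genes, of which 9 had been called under DMSO. ANKRD1 had 669, 768 and 784 CPM in SPARK-OFF cells and 646, 772 and 742 CPM in no-mCherry cells with rapamycin, ranges that overlapped, and a line difference of 0.04 ± 0.11 there. The interaction was 1.10 ± 0.16 (adjusted p = 0.0058). CCN1 had 902, 891 and 872 CPM in SPARK-OFF cells and 481, 479 and 460.3 CPM in no-mCherry cells with rapamycin (0.91 ± 0.08), so that it differed between the lines in both treatments but less under rapamycin (interaction 0.65 ± 0.11, adjusted p = 0.017). CCN2 (0.64, adjusted p = 0.035), THBS1 (0.97, adjusted p = 0.024) and KRT4 (1.26, adjusted p = 0.024) had the same pattern. TNFRSF12A had the opposite one, with 62.2, 62.8 and 63.1 CPM in SPARK-OFF cells and 16.6, 16.05 and 14.6 CPM in no-mCherry cells with rapamycin, against 31.2, 28.4 and 29.2 CPM in SPARK-OFF cells and 16.4, 16.5 and 21.9 CPM in no-mCherry cells with DMSO (interaction -1.30 ± 0.18, adjusted p = 0.0043).

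**Figure D5:**
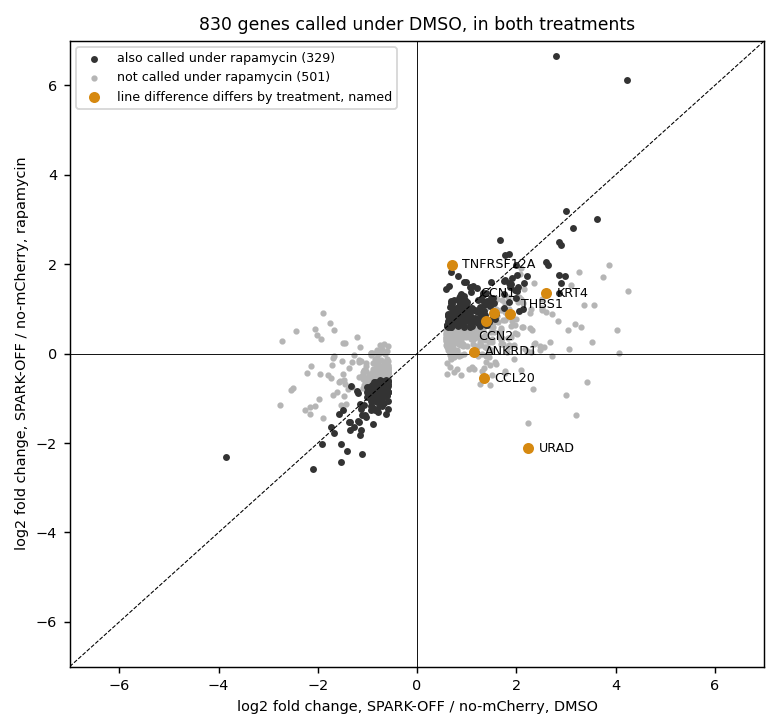
Log2 fold change of SPARK-OFF over no-mCherry cells under DMSO (horizontal axis) and under rapamycin (vertical axis) for the 830 genes called under DMSO. Dark points were also called under rapamycin and grey points were not. Orange points are the 8 genes named by rule for the smallest interaction p. Most points lie in the quadrants where both differences have one sign, ANKRD1 sits near 0 on the vertical axis and TNFRSF12A lies above the dashed line of equal difference.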

How the data were processed

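RNA from polyA selection was sequenced for 15 libraries in 5 groups of 3. The authors deposited raw counts per gene, as whole numbers without normalization. Per the study's methods, fastp trimmed the reads and STAR aligned them to hg38. The submitters' processing notes name FastQC, HTSeq and edgeR. The counting's annotation and strand setting are not stated in these sources, so overlapping and antisense genes may share reads. Of 61533 identifiers 61415 matched GENCODE v44 without version numbers, 46 of them Y copies of pseudoautosomal genes.

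Counts were filtered with filterByExpr over the 5 groups, which left 18391 genes (16367 with a symbol), scaled by TMM and tested with the quasi-likelihood test of edgeR 4.0.16 in R 4.3.3, in 1 fit over all 15 libraries. Adjusted p-values are Benjamini-Hochberg values over the whole table of tested genes. The common biological coefficient of variation was 0.111. Each SE is the Wald error of its coefficient. The procedure was tested on simulated data. The compared libraries held 14720387 to 21223087 reads, and counting error weighs most on genes with few reads.

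Genes were named by rule: MAML2, YAP1, FKBP1A and MTOR; the 15 largest increases and 15 largest decreases among called protein-coding genes at 5 CPM or more with libraries that do not overlap; the 8 in each direction with the largest difference in CPM; up to 4 members a list by p at 2 CPM or more, and all core YAP targets; genes without reads in 1 line (0 found); and the 8 called genes with the smallest interaction p. A few further list members were named after their values were seen, to spell out small counts. The members and the 38 lists were chosen with earlier results of these data known. Promoters came from RefSeq on GRCh38.p14, and 93 of 169 named genes had an entry. Alternatives were RLE scaling, no filter, a filter of 1 CPM in 3 libraries, DESeq2 1.42.0, a replicate block, leaving out each replicate, a fit on the compared libraries alone and an adjusted p under 0.05 alone. Some list members are not reported here by name.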

Additional observations from a re-analysis of the deposited data

Results flagged for a closer look

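The 8 genes below are the protein-coding genes called under DMSO with the smallest p for the interaction. That term comes from the fit over all libraries, and the naming rule set the number of genes. Each had an adjusted p under 0.05, as did 18 of all tested genes. Values are the line difference under DMSO minus that under rapamycin, on the log2 scale. It was -1.30 for TNFRSF12A (adjusted p = 0.0043), 1.10 for ANKRD1 (adjusted p = 0.0058), 0.65 for CCN1 (adjusted p = 0.017), 1.26 for KRT4 (adjusted p = 0.024), 0.97 for THBS1 (adjusted p = 0.024) and 0.64 for CCN2 (adjusted p = 0.035). For CCL20 it was 1.90 (adjusted p = 0.048). This chemokine gene had 4.92, 4.58 and 4.89 CPM in SPARK-OFF cells and 2.13, 1.63 and 1.93 CPM in no-mCherry cells with DMSO, and 1.73, 1.85 and 1.58 CPM in SPARK-OFF cells and 2.44, 2.02 and 3.12 CPM in no-mCherry cells with rapamycin. For URAD it was 4.35 (adjusted p = 0.041), at levels of 1.06, 1.27 and 0.900 CPM in SPARK-OFF cells and 0.275, 0.054 and 0.351 CPM in no-mCherry cells with DMSO, and 0.173, 0.326 and 0.079 CPM in SPARK-OFF cells and 0.555, 0.810 and 1.09 CPM in no-mCherry cells with rapamycin, so it rests on few reads.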

How the results depend on the processing

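With RLE scaling, no filter, a filter of 1 CPM in 3 libraries and DESeq2 1.42.0, the counts of genes called between the lines under DMSO and under rapamycin stayed within 1.5 times of those given, at 436 to 511 higher and 317 to 382 lower under DMSO, and RLE scaling kept 823 of the 830 calls. The genes called lower under DMSO numbered 205 in the fit on the compared libraries alone and 598 at an adjusted p under 0.05 with no fold threshold. The interaction counts, 22 and 13, became 37 and 31 with no filter, 45 and 36 with DESeq2, and 21 and 5 in the fit on the compared libraries alone. Leaving out 1 replicate gave 370 to 467 genes higher and 245 to 441 lower under DMSO, 386 to 435 higher and 520 to 564 lower under rapamycin, and 7 to 38 and 1 to 54 for the interaction. Without no-mCherry DMSO replicate 3 the interaction counts were 38 and 54. Of the DMSO calls, 59% were in the higher direction with all libraries, 46.6% without that replicate and 53.7% to 61.4% without 1 of the other 5.

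The replicate numbers did not pair the libraries: deviations from the group means of same-numbered SPARK-OFF and no-mCherry DMSO libraries correlated at -0.12, 0.30 and 0.05. With a replicate block 466 genes were higher and 317 lower under DMSO, 770 of the 830 calls were made again, and the interaction counts were 17 and 7. Of the 157 named genes that passed, 9 did not under the block, 14 did not with no filter, 50 did not in the fit on the compared libraries alone, and 13 to 32 did not with 1 library left out, and none of the 157 changed sign.

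Genes near 0 that had not passed changed sign in places. With 1 replicate left out, ASAP1 ranged over -0.142 to 0.0598, AXL over -0.776 to 0.0320, DOCK5 over -0.248 to 0.0147, FKBP1A over -0.0494 to 0.0687 and MTOR over -0.218 to 0.0646 on the log2 scale. FKBP1A was 0.000786 in the fit on the compared libraries alone. The cause was not tested for any of these.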
